A study of Populus tremula with 16 samples.

Results

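Aspen leaves of 28 September and 1 October 2011 were set against leaves of 18, 22 and 26 September, to describe the leaf on the last dates that were sampled. The members are 5 of the 16 RNA sequencing libraries of an autumn series of Populus tremula (European aspen), chosen by their collection dates alone. Each date gave 1 library, so the comparison had 2 libraries against 3, and dates stood in for replicates. The labels give the tissue, leaf, and the date, with no treatment, genotype or age, and they do not say whether leaves came from 1 tree or were pooled. The p-values therefore measure only the scatter between single dates. A library of 19 September was left out, because all of its counts were equal to or below those of 18 September. The 10 libraries of 27 July to 15 September had no part in choosing or testing genes in this comparison. They are used below as a record of where the genes stood before.

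In autumn senescence a leaf is taken apart in order. Chloroplasts are dismantled and chlorophyll is broken down, proteins are digested, and nitrogen, phosphorus and sugars are carried to the branches and buds. The nucleus and the mitochondria work until late in this process, so the dying leaf still makes RNA from a changing set of genes until the stalk is cut off by the abscission layer.

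The libraries of 28 September and 1 October held 1162665 and 756966 counts, and those of 18, 22 and 26 September held 4344936, 3789246 and 3271054 counts. Depth thus differed between the groups in every library, which bears on each count of low genes below. A count of 0 allows up to 3 counts, or 1.44 and 2.19 CPM on the last 2 dates and 0.587 to 0.701 CPM on 18 to 26 September. CPM are counts scaled to a common library size with TMM (a trimmed mean of log ratios), here over the 15 libraries used. Genes appear by their deposited IDs, and no source used here pairs these with gene names or roles, so the leaf label could not be checked against marker genes. For the same reason only 4 IDs are printed, 2 that rose and 2 that fell.

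Expression changed widely between the groups, upward and downward in nearly equal number. Of 13701 tested IDs, 5570 (40.7%) differed at an adjusted p of 0.05 in edgeR's quasi-likelihood test. On the last 2 dates 2866 IDs (20.9%) were higher and 2704 (19.7%) were lower. More than 4-fold changes were upward in 1398 IDs (10.2%) and downward in 1321 (9.64%). Of the lower IDs, 101 had 0 counts on both last dates. With those set at the bound that 3 counts allow, 1270 were more than 4-fold lower. In bulk leaf tissue, fewer cells of a type and less RNA per cell cannot be told apart.

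The count of calls moved more with the dates kept than with the scaling. It was 4545 without 18 September, 3705 without 22 September and 6652 without 26 September. With the other scalings it was 5502, 5711 and 5586. Leaving out a date also takes away a replicate, and without either last date 1 library stands alone. Loss of power and the influence of a date cannot be told apart there. None of the 5570 IDs turned its direction under the 16 alternatives tried, where it was tested. That outcome was largely set beforehand, since 5560 of them had groups that did not overlap, so no conclusion is drawn from it. The balance of directions depended on the scaling. Higher IDs made up 51.5% of the calls with TMM and 77.9% with library totals alone, where the median over all tested IDs was 0.40 log2 units in place of -0.18. Directions here are relative to the TMM reference.

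**Figure D1:**
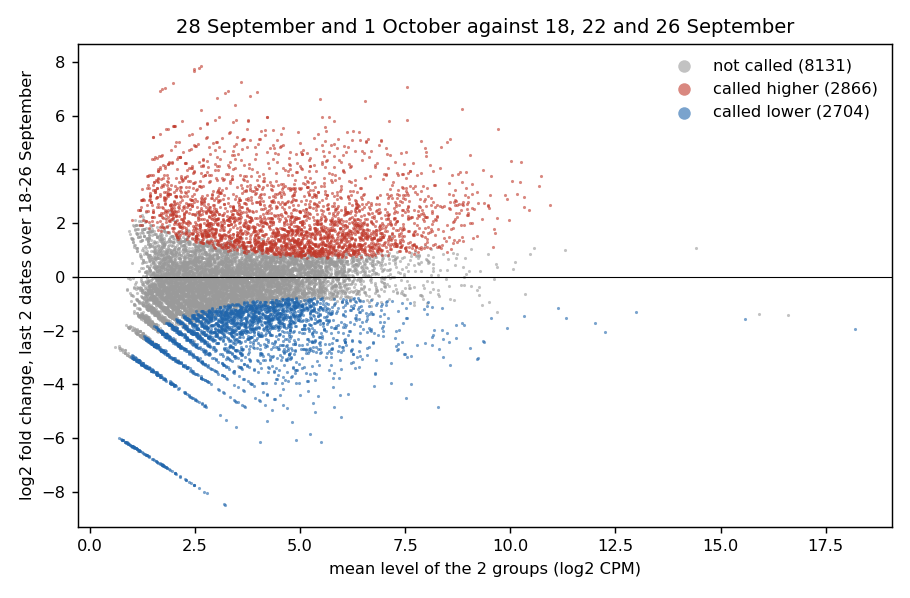
Log2 fold change of the 13701 tested IDs, 28 September and 1 October over 18 to 26 September, against the mean level of both groups in log2 CPM, scaled by TMM over the 5 libraries. The 2866 red points were called higher and the 2704 blue points lower, and the separate blue bands at the lower left are IDs with 0 or a few counts on the last dates, whose fitted changes are uncertain.

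The libraries of both groups did not overlap for 9409 IDs (68.7%), of which 4296 (31.4%) were higher and 5113 (37.3%) lower on the last 2 dates. Only 10 of the 5570 called IDs had overlapping groups. In counts simulated for this comparison over 13701 genes, only 100 genes were changed 4-fold and 100 were changed 2-fold. The test found 81% of the former and 13% of the latter. Far more IDs, 5570, were called in the data. These shares therefore describe the simulated counts and are not taken as the power of the test for the measured IDs.

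Among 1970 higher IDs that qualified for naming, the 2 with the largest fitted change were barely present before 28 September. Potri.010G081100 had 214 CPM on 28 September and 308 CPM on 1 October, from 444 and 421 counts, against 0.979, 2.41 and 2.10 CPM on 18, 22 and 26 September, from 5, 12 and 9 counts. Both last dates stood far above the 3 dates before them. Summed counts were 139 times as high, with a 95% exact interval, for counting error alone, of 94.0 to 214, and the fitted log2 change was 7.06 (SE 0.44, edgeR adjusted p = 5.7e-05). Over the 10 libraries of 27 July to 15 September it never had more than 7 counts in a library.

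Potri.001G274600 had 28 counts on each of 28 September and 1 October, or 13.5 and 20.5 CPM, against 0, 0 and 1 counts on 18, 22 and 26 September. It was almost undetected until the last 2 dates, with a single count in the 10 earlier libraries, on 9 September. The ratio of summed counts was 234, with an exact interval of 40.2 to 9386, and the fitted log2 change of 7.25 (SE 0.66, edgeR adjusted p = 9.15e-05) rests on those few counts.

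Among 2006 lower IDs that qualified, the 2 with the largest fitted change had no counts left on the last 2 dates. The fitted change of an ID at 0 is uncertain, so these 2 need not be the steepest falls. Potri.017G039200 had 0 counts on both 28 September and 1 October, against 96, 50 and 36 counts on 18, 22 and 26 September, or 18.8, 10.0 and 8.41 CPM. It was thus lower on each later date of the reference period too. Summed over the dates it was at least 14.5-fold lower on the last 2, against a floor of 3 counts over both libraries (edgeR adjusted p = 0.000819). In the 4 libraries of 9 to 15 September it averaged 27.3 ± 2.55 CPM (SD, n = 4), and in July and August 25.6 ± 7.79 CPM (SD, n = 4).

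Potri.017G070800 also had 0 counts on both last dates, against 66, 68 and 43 counts on 18, 22 and 26 September, or 12.9, 13.7 and 10.1 CPM. It was at least 14.1-fold lower on the last 2 dates by the same floor (edgeR adjusted p = 0.000303). It had averaged 12.2 ± 1.91 CPM on 18 to 26 September (SD, n = 3) and 16.0 ± 2.35 CPM in July and August (SD, n = 4). On 9 to 15 September it stood at 10.3 ± 6.99 CPM (SD, n = 4), a spread that rests on 4 and 3 counts in the shallow libraries of 11 and 15 September.

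**Figure D2:**
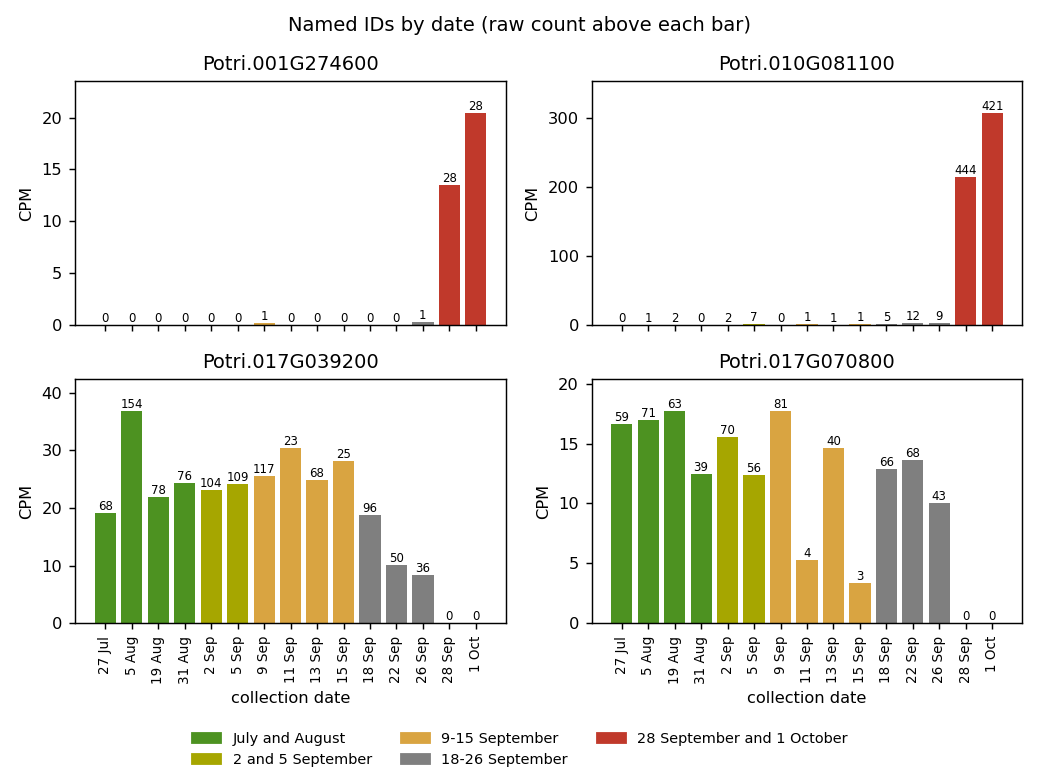
Level in CPM (scaled by TMM over 15 libraries) of the 4 named IDs on each date, with the raw count above each bar and colours for the date groups. Both upper IDs stand at their highest on 28 September and 1 October, and both lower IDs have 0 counts there.

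The largest step between neighbouring dates was that from 26 to 28 September. Leaving aside the 10 most abundant IDs, 165204 counts were drawn from each library, so that counting noise was alike, and 1589 IDs with a mean of 20 thinned counts or more were followed from date to date. Between 26 and 28 September, 2 days apart, 41.5% of them differed by more than 2-fold, 310 higher and 349 lower on 28 September. From 28 September to 1 October, 3 days, the share was 11.8%, with 54 higher and 134 lower. The earlier steps of the reference period, 18 to 22 and 22 to 26 September, 4 days each, gave 5.79% and 13.2%. The other 10 steps of the series gave 8.31% to 21.4%, the highest between 31 August and 2 September. These shares hold counting noise and have no replicate, so nothing shows whether another leaf sample of 28 September would have stood as far away. The mean of 20 counts was taken over all 15 libraries. An ID could thus be included through high counts on the last 2 dates alone, which favours a large step to 28 September.

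**Figure D3:**
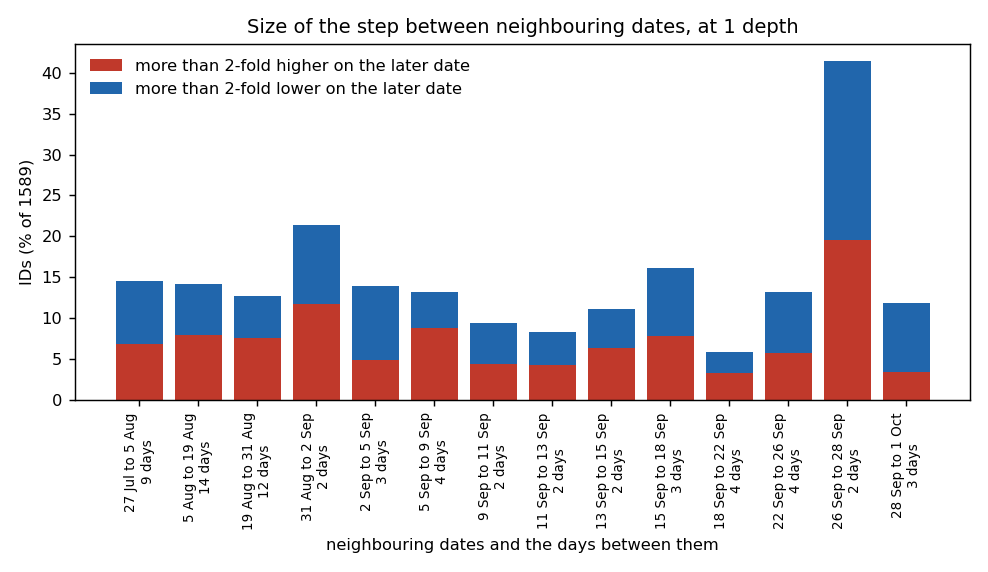
Share of 1589 IDs that differed by more than 2-fold between neighbouring dates, at 1 depth, split into those higher and those lower on the later date. The step from 26 to 28 September reached 41.5%, against 5.79% to 21.4% in the other 13 steps.

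The list of the most abundant transcripts also changed. Among the 100 most abundant IDs of each thinned library, 28 September and 1 October shared 80. Of the list of 28 September, 46 stood also in that of 26 September, 26 in that of 22 September and 24 in that of 18 September. The list of 1 October shared 32, 15 and 12 with those dates. Within the reference period, 26 September shared 69 with 22 September and 65 with 18 September. Of the 100 most abundant IDs of 27 July, 57 were in the list of 15 September, 43 in that of 18 September, 28 in that of 26 September, 5 in that of 28 September and 3 in that of 1 October. The July and August libraries shared 84 to 89 with each other. Across the 1589 IDs, the rank correlation of levels was 0.96 between 28 September and 1 October, 0.75 between 26 and 28 September and 0.23 between 18 September and 1 October, as a description across genes, which are not independent replicates.

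Among the 1000 IDs most abundant on the earlier dates, lower calls outnumbered higher ones on the last 2. IDs were ranked by their mean level in the 10 libraries of 27 July to 15 September, which the test did not use. The balance depends on that choice. Ranked by the mean CPM of the 2 compared groups instead, ranks 11 to 100 held 55 higher and 11 lower IDs. Ranks 101 to 1000 then held 534 and 110. The classes below thus hold IDs abundant before, not abundant IDs in general. By the earlier levels, 0 of the 90 IDs ranked 11 to 100 were called higher and 70 were called lower, against 20.9% and 19.7% of all tested IDs. Their median log2 change was -2.15, against -0.18 over all tested IDs, and their changes ran from -6.08 to 1.01. In 77 of the 90 both last dates lay below the 3 dates before, as in 37.3% of all tested IDs. Of the 900 IDs of rank 101 to 1000, 106 were higher and 451 lower, with a median log2 change of -0.96. Of the next 4000, 616 were higher and 1205 lower, and of the remaining 8701, 2144 were higher and 971 lower. With library totals alone the balance of the class of 4000 turned round, to 1078 higher and 549 lower, and the last class had 3082 higher and 318 lower. The last class is selected, since an ID could pass the filter on low counts through the last 2 dates alone. It includes most of the 201 tested IDs with at most 3 counts over the 10 earlier libraries, of which 187 were called higher.

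The number of lower calls among those 90 IDs ranged from 52, without 1 October, to 76, without 26 September. It was 60 with library totals alone and 69 at 1 depth. By the same alternatives 0 to 3 of the 90 were called higher.

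**Figure D4:**
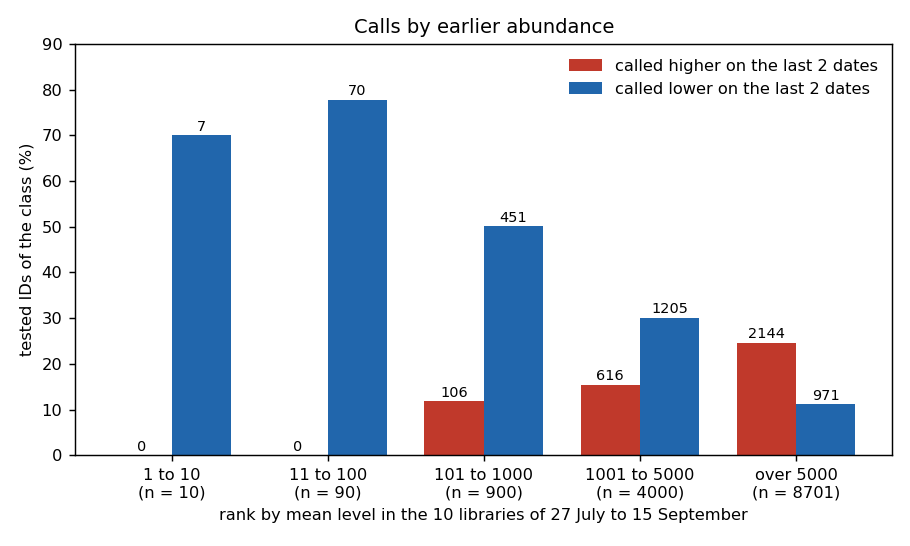
Share of tested IDs called higher (red) and lower (blue) on the last 2 dates, by their rank in mean CPM over the 10 libraries of 27 July to 15 September, with the number of calls above each bar. Lower calls make up 70 of the 90 IDs of rank 11 to 100, and with TMM, though not with library totals alone, higher calls outnumber lower ones only in the class over 5000.

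The shares of counts in these classes are given with no test. Outside the 10 IDs most abundant on the earlier dates, the 90 IDs of rank 11 to 100 held 3.88% of the counts on 28 September and 3.35% on 1 October, against 12.6%, 11.8% and 9.43% on 18, 22 and 26 September. They had held 20.8% to 22.0% in July and August. The 900 IDs of rank 101 to 1000 held 19.0% and 17.0% on the last 2 dates, against 26.1%, 25.7% and 24.4%. The 4000 IDs of rank 1001 to 5000 held 42.1% and 40.8%, against 36.7%, 37.0% and 39.4%, so their share was higher although more of them were called lower than higher. The 8701 IDs of rank over 5000 held 33.1% and 37.0% on the last 2 dates, against 21.1%, 22.1% and 24.3% on 18, 22 and 26 September and 15.9% to 16.0% in July and August. That class includes IDs that passed the filter through the last 2 dates alone, which favours a higher share there. The 2 groups did not overlap in any of these 4 shares, and 26 September lay nearest to the last dates in each.

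A few very abundant IDs lost their hold on the library. The 10 most abundant IDs over the 5 libraries took 37.7% of the counts on 28 September (95% Wilson interval 37.6 to 37.8%) and 32.5% on 1 October (32.4 to 32.6%), against 72.7%, 70.4% and 67.8% on 18, 22 and 26 September. Their share was 35.1 ± 3.70% on the last 2 dates (SD, n = 2) and 70.3 ± 2.47% on 18 to 26 September (SD, n = 3). The groups did not overlap, and the two-sided exact permutation p of 0.1 is the smallest that 2 libraries against 3 allow. It was also 0.1 for each of the 6 measures per library tested this way, and 0.1 after adjustment.

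By edgeR's test 7 of the 10 were called lower and 0 higher, where 19.7% of all tested IDs were lower. The number lower was 1 with library totals alone, and 3, 3 and 2 without 1 October, 18 September and 22 September. It was 9, with 1 higher, by DESeq2, by limma-voom, without 28 September, without 26 September and with all date groups in 1 fit. The most abundant of them held 16.8% and 14.7% on the last 2 dates, against 42.3%, 41.0% and 37.8% before, with a log2 change of -1.94 (SE 0.69, edgeR adjusted p = 0.0424). That call ended with library totals alone (adjusted p = 0.107) and without 18 September (0.138) or 22 September (0.198), while its change stayed below -1.35 under all of these. Of the 10, 4 carry the prefix 013G and 4 the prefix 011G, and all 8 had changes below 0, with library totals alone too. The 013G IDs together held 27.0 ± 4.03% on the last 2 dates (SD, n = 2), against 60.5 ± 2.59% on 18 to 26 September (SD, n = 3), and the 011G IDs held 4.19 ± 0.428% against 8.33 ± 0.273%. A single one of the 10, at rank 5, went the other way with 3.18% and 4.34% of the counts on the last 2 dates, against 1.12%, 1.14% and 1.28% before. Its log2 change of 1.09 (SE 0.48) did not pass the threshold (edgeR adjusted p = 0.0864). It was called higher with library totals alone, with a change of 1.68 (edgeR adjusted p = 0.0175), and under the settings above that gave 1 higher call. No source used here tells how reads that match several IDs were counted.

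Outside those 10 IDs the counts gathered on fewer IDs. With each library thinned to 510937 counts outside them, 654 IDs on 28 September and 594 IDs on 1 October held 50% of the counts, against 1318, 1382 and 1132 IDs on 18, 22 and 26 September. At that depth 18758 and 18671 IDs had a count on the last 2 dates, against 20488, 20638 and 19727. The groups did not overlap in either measure (exact permutation p = 0.1 for both). Thinned over all IDs, the number with a count turned round and was higher on the last 2 dates, with 18507 and 18681 IDs, against 17262, 17742 and 17037 on 18, 22 and 26 September, where the 10 most abundant IDs take most of the counts drawn.

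Complete switches were rare at this depth. With 20 counts or more in each library of 18 to 26 September, 8 IDs had 0 counts on both last dates, and 1 did at the common depth. No ID had 0 counts over 18 to 26 September and 20 or more on each of the last 2 dates. With at most 3 counts over 18 to 26 September, 3 IDs had 20 or more on each of the last 2 dates, and all 3 had at most 3 counts over the 10 earlier libraries. In the other direction, 115 IDs had at most 3 counts over the shallower last 2 dates and 20 or more in each library of 18 to 26 September. At the common depth these limits gave 10 IDs for the rise and 26 for the fall. Of the 8 lost IDs, 7 had been counted in every one of the 10 earlier libraries.

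The medians of the called IDs stood near their summer level until mid September, while their summed counts had already moved. Levels were set against each ID's mean over July and August, on the log2 CPM scale. The 1398 IDs higher by more than 4-fold stood at a median of 3.44 log2 units on 28 September and 3.85 on 1 October, against 0.44, 0.74 and 1.36 on 18, 22 and 26 September. In the libraries of 9 to 15 September their median was 0.00 to 0.25. The 1321 IDs lower by more than 4-fold stood at -2.92 and -3.24 on the last 2 dates, against -0.59, -0.65 and -1.18 on 18, 22 and 26 September, and at -0.43 to -0.24 on 9 to 15 September. Both groups thus show 26 September between the dates before and after it. The calls used the last 5 of these dates, so the values from 18 September on are a description. Medians near 0 include IDs with no counts in shallow libraries and risen IDs that passed the filter through the last 2 dates alone.

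**Figure D5:**
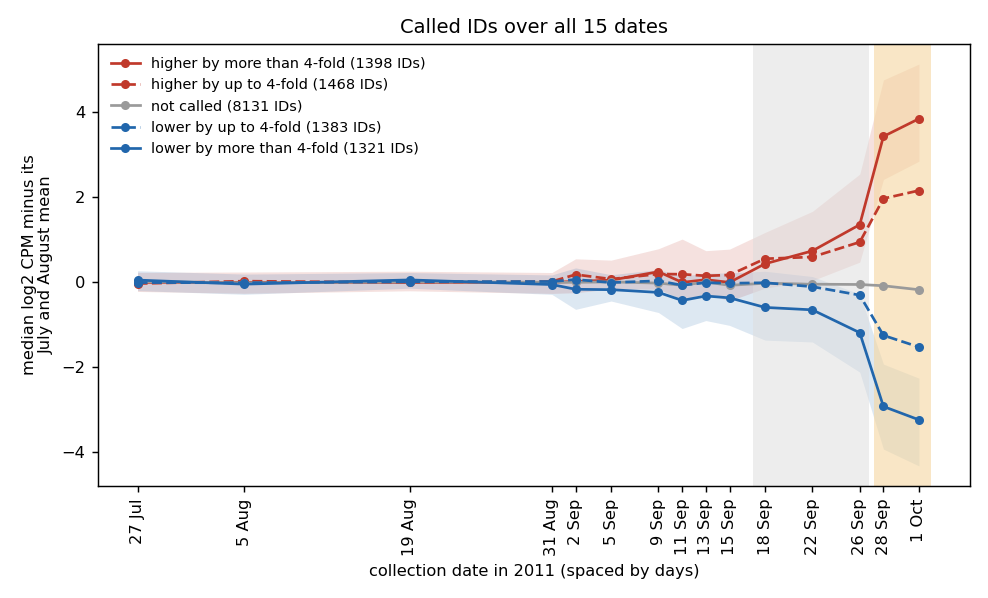
Median over IDs of log2 CPM minus the July and August mean of each ID, by date, for IDs called higher or lower by more or up to 4-fold and for 8131 IDs not called, with bands for the quartiles of the 2 classes beyond 4-fold. Grey shading marks 18 to 26 September and orange shading the last 2 dates, where the classes reach 3.85 and -3.24 log2 units on 1 October.

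The IDs higher by more than 4-fold took 33.0% and 39.3% of the counts outside the 10 most abundant IDs on 28 September and 1 October, against 4.34%, 5.83% and 10.7% on 18, 22 and 26 September, 2.84% to 3.22% on 9 to 15 September and 1.70% to 1.87% in July and August. The IDs lower by more than 4-fold held 1.68% and 1.07% on the last 2 dates, against 16.5%, 15.3% and 9.47% on 18, 22 and 26 September, 19.1% to 22.2% on 9 to 15 September and 28.8% to 29.7% in July and August. IDs chosen for a rise or a fall must differ between these groups. The values up to 15 September were not used in the choice. Risen IDs could still pass the filter on low counts through the last 2 dates alone, which favours low earlier shares.

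Most called IDs lay outside their range of 27 July to 15 September on the last 2 dates. The calls used these same 2 dates, and an ID could pass the filter on low counts through them alone. Both favour the shares below, which are given as a description. For 2637 of the 2866 higher IDs (92.0%) both last dates stood above all 10 libraries of 27 July to 15 September, where 4110 of all 13701 tested IDs did so. For 2192 of the 2704 lower IDs (81.1%) both stood below all 10, where 3988 of all 13701 did so. Both last dates lay within the range of the 10 earlier libraries for 82 of the higher IDs (2.86%) and 277 of the lower IDs (10.2%). Of all 13701 tested IDs, 2826 (20.6%) did so. IDs with only 1 of the last 2 dates inside that range are in none of these counts.

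Genes that had already changed by mid September did not all continue. In a fit of the 8 libraries of 9 to 15 September (n = 4) and of July and August (n = 4), which shares no library with the main comparison, 2196 of 13554 tested IDs (16.2%) differed by edgeR's quasi-likelihood test, 1094 higher (8.07%) and 1102 lower (8.13%) in September. Among the 11343 IDs tested in both fits, 691 were lower in that first change, and 386 of these (55.9%) were lower again on the last 2 dates, where 23.4% of all 11343 were lower. The share was smaller without 28 September and without 1 October, where 1 library stood alone. No share over the same IDs is at hand to set beside it there. The 386 made up 14.5% of the 2653 IDs lower on the last 2 dates, where 6.09% of all 11343 were lower first.

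Of 1079 IDs higher in the first change, 316 (29.3%) were higher again on the last 2 dates, where 14.9% of all 11343 were higher. Another 273 (25.3%) were lower, near the 23.4% of all 11343. This split depended on the scaling. With library totals alone 41.7% were higher and 12.0% lower, where 31.8% and 9.00% of all 13701 tested IDs were. Shares over all 13701 include IDs not tested in the earlier fit. Their counterparts with TMM are 20.9% and 19.7%, not the 14.9% and 23.4% of the 11343. With upper quartile scaling 27.5% were higher and 27.7% lower, where 19.3% and 22.4% of all 13701 were. The 316 made up 18.7% of the 1694 IDs higher on the last 2 dates, where 9.51% of all 11343 were higher first. Of the 691 IDs lower in the first change, 36 (5.21%) were higher at the end, where 14.9% of all 11343 were higher. No test was made of these overlaps.

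Between the last 2 dates themselves, most risen IDs were higher on the second. Of the 2866 higher IDs, 2001 (69.8%) had a higher level on 1 October than on 28 September, against 46.6% of all tested IDs. More than 2-fold above were 272 (9.49%), near the 9.76% of all tested IDs. More than 2-fold below were 41 (1.43%), against 15.4% of all tested IDs. Of the 2704 lower IDs, 813 (30.1%) were higher on 1 October than on 28 September. Of them all, 223 (8.25%) were more than 2-fold above and 762 (28.2%) more than 2-fold below, against the same 9.76% and 15.4%. With 1 library per date and few counts for many lower IDs, differences between these 2 dates have no replicate check.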

How the data were processed

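The values are raw counts of reads for 41335 gene IDs in 16 libraries, as deposited by the authors, and the 16 single tables held the same counts. The tools named per the submitters' processing notes are STAR 2.4, HTSeq, Trimmomatic 1.0, FastQC 1.0 and CASAVA 1.8.2, without a stated role. Build, annotation, strand setting and treatment of reads with several matches: not given in the sources used here. A normalised copy was not used.

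IDs passing filterByExpr (minimum count 10, minimum total 15) were scaled by TMM and tested on the 5 libraries alone by the quasi-likelihood functions of edgeR 4.0.16 (R 4.3.3), with Benjamini-Hochberg adjustment at 0.05. DESeq2 1.42.0 and limma 3.58.1 served as alternatives. SE is the fold change over the root of F. The test was checked on simulated counts. Log2 CPM used a prior count of 2. Named IDs were called, did not overlap, had 20 counts or more in each library of the higher group and the largest change. The 25 gene lists by product name and the promoter motifs could not be used without gene names, and of the 10 most abundant IDs, which the rule also names, only ranks and prefixes are given. Members and lists were chosen with earlier results of these data known. Thinning, rank classes and steps between dates were chosen after the data were seen. Intervals and floors hold for counting error alone, because the reads carry no molecular identifiers and may repeat a molecule.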

Additional observations from a re-analysis of the deposited data

Results flagged for a closer look

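In 25 groups of 4 libraries with unequal values, 2 had a library whose gap to its nearest neighbour passed Dixon's 95% limit, and chance gives about 1 in 20. Potri.001G274600 was at 0.219 CPM on 9 September, from a single count, where the other libraries of 9 to 15 September had 0. The 4 IDs with the prefix 011G among the 10 most abundant held 10.2% of the counts on 31 August, where the nearest July or August library held 10.6%.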

How the results depend on the processing

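No paired analysis was possible because the labels give no replicate numbers and each date is 1 library. Leaving out each library in turn, the called IDs numbered 2324 to 6652, the higher ones 1500 to 3290, the lower ones 824 to 3362, those more than 4-fold higher 937 to 1547 and those more than 4-fold lower 639 to 1459. A library that stands alone for its group is then assumed to vary like the others. Testing against a 2-fold change left 2519 calls, 1527 higher and 992 lower, with 876 more than 4-fold lower. With library totals alone 4353 were higher and 1233 lower, and 2202 and 649 by more than 4-fold. DESeq2 called 1720 lower and limma-voom 1569, 714 of them by more than 4-fold. The cause of these shifts was not tested. At 1 depth 4492 of 9750 tested IDs were called, 51.6% higher. The 19 September library in place of 18 September gave 4487 calls among 8860 tested IDs, and all date groups in 1 fit gave 5971. The 4 named IDs were called under all 16 alternatives, with adjusted p up to 0.0176. The IDs called on 9 to 15 September against July and August numbered 6721 with library totals alone, 3300 with no filter, 309 against a 2-fold change and 1501 to 2445 without single libraries. The difference in IDs with a count was -1570 and turned to 1247 when thinned over all IDs. The step from 26 to 28 September was 50.8% for IDs with a mean thinned count of 50 or more and 46.1% without TMM, and the step to 1 October was 10.1% without TMM, by alternatives chosen after seeing the data. Gene list alternatives were not run. The last 2 libraries are the shallowest of the 5, which limits what can be said of IDs under 3 counts.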

Other observations

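Called IDs were spread over the whole range of ID prefixes. Over the 19 numbered prefixes with 100 tested IDs or more, the share called higher on the last 2 dates ran from 15.4% to 24.6% and the share called lower from 17.5% to 27.5%. The prefix 013G, which holds the most abundant ID, had both the lowest share of higher and the highest share of lower calls, with 15.4% and 27.5% of its 552 tested IDs and a median log2 change of -0.59. The prefix 010G had the highest share of higher calls, 24.6% of 901.

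Neighbouring IDs sometimes changed together. The longest unbroken run of tested IDs called in 1 direction held 11 IDs, all higher, under the prefix 002G, with log2 changes of 0.95 to 4.59. A run of 9 higher IDs under 017G had changes of 1.20 to 5.97. Runs of 8 lower IDs stood under 011G, with changes of -2.68 to -1.32, and under 013G, with changes of -3.82 to -1.57. These runs were picked after their values were seen, and reads shared between near-identical neighbours could produce them. That part was not tested.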
